A study of Mus musculus with 12 samples.

Results

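Cluster 25, which the study named PN 3, is a small group of projection neuron nuclei of the embryonic mouse cortex. Its members were all nuclei the study assigned to Cluster 25, 124 of the 50550 nuclei in the deposited tables and the smallest of the 25 clusters. The data are snRNAseq (single-nucleus RNA sequencing) of cortices of C57BL/6J embryos labelled embryonic day 14, with 1 library per embryo. The 5 saline embryos came from dams S1 and S2, which were injected with saline, and the 6 EtOH embryos from dams E1 and E2, which were given ethanol at 2.5 g/kg, in both cases as 6 daily intraperitoneal injections, as a model of moderate prenatal alcohol exposure. Dams S1 and E1 formed batch 1 and dams S2 and E2 batch 2, so each treatment rests on 2 dams and littermates are not independent. One further saline embryo is not analysed here.

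Projection neurons are glutamatergic neurons of the cortex that send long axons to other cortical areas or out of the cortex. They arise from radial glia in the wall of the ventricle, directly or by way of intermediate progenitors, and migrate outward into the cortical plate. Transcription factors such as Fezf2 and Tbr1 mark their later subtypes, and vesicular glutamate transporters load their synaptic vesicles.

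Cluster 25 nuclei carried more transcripts than those of any other cluster. The median Cluster 25 nucleus had 19112 UMIs (unique molecular identifiers, each counted as 1 transcript) and 4567 genes, with 7961 UMIs in the shallowest and 48078 in the deepest nucleus. The medians of the other 24 clusters lay between 4934 in Cluster 12 and 10508 in Cluster 22. Within each embryo the median Cluster 25 nucleus had 1.98 to 3.11 times the UMIs of the median nucleus of the other 7 PN clusters. When every nucleus was thinned to 2000 UMIs, the median Cluster 25 nucleus held 1114 genes, which ranked 22nd of the 25 clusters. At equal depth the gene count was thus not higher than in most other clusters. Doublets were not called, and their part in the depth was not tested. None of the 124 barcode sequences occurred in another library (0 of 124), while 1.26% of all nuclei had a barcode sequence found in a second library.

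**Figure D1:**
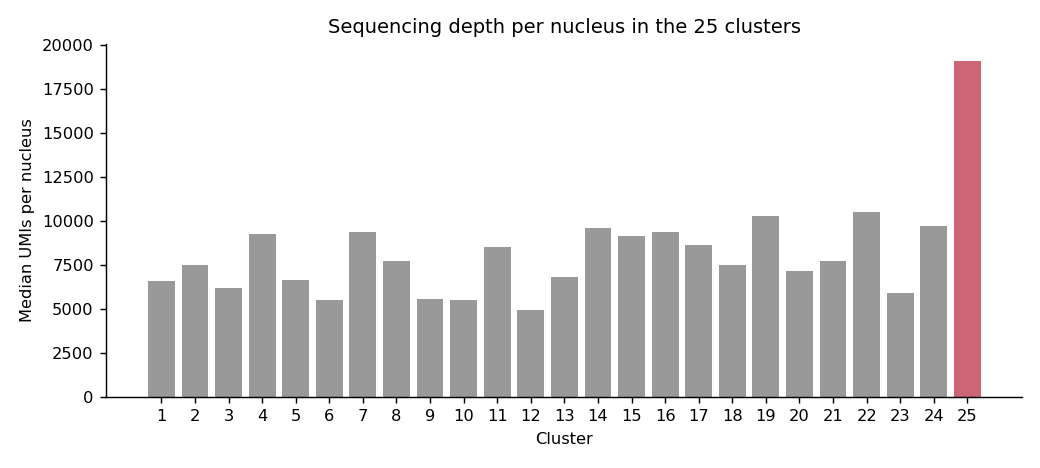
Median UMIs per nucleus (vertical axis) in each of the 25 clusters (horizontal axis), over all nuclei of the 11 embryos, with Cluster 25 in red. The bar of Cluster 25 stands at 19112 UMIs and the next, Cluster 22, at 10508.

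Fam19a1, which encodes a secreted chemokine-like protein of the brain, had the highest mean level of the listed markers in these nuclei. Kcnip4, another listed marker, was higher than Fam19a1 in embryos S2-1 and E2-2. Levels are given as CPM, the counts of the summed nuclei of an embryo scaled to a total of 1000000, over the 7 embryos with at least 10 Cluster 25 nuclei. Ranks among the clusters, and the cluster named as next highest, come from counts summed over all nuclei of a cluster. In the saline embryos Fam19a1 stood at 8494 CPM in S1-1, 12814 in S1-2, 4703 in S2-1, 9019 in S2-2 and 9323 in S2-4. In the EtOH embryos it stood at 9787 in E2-2 and 9454 in E2-3. S1-2 was the highest and S2-1 the lowest, and both of these EtOH embryos lay within the saline range. The EtOH embryos with fewer nuclei ran from 6608 CPM in E1-2 to 13783 CPM in E2-4, the latter above the saline range on 4 nuclei. The mean was 9085 ± 2386 CPM (SD, n = 7), against 3504 ± 809.55 (SD, n = 11) in Cluster 8, the next highest cluster, whose highest embryo reached 4551. Cluster 7 followed at 836 ± 341 CPM and Cluster 19 at 534 ± 261. By summed counts the median of the other 24 clusters was 64.5 CPM. The clusters were defined from these same genes, so the differences between clusters are descriptions and were not tested.

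Ebf2, a helix-loop-helix transcription factor of the early B-cell factor family, was shared with the Cajal-Retzius cluster. Its level was 298 CPM in S1-1, 354 in S1-2, 884 in S2-1, 699 in S2-2 and 344 in S2-4 among the saline embryos. It was 562 CPM in E2-2 and 289 in E2-3. S2-1 and S2-2, littermates of dam S2, were thus the highest of these embryos, and S2-4 of the same dam was among the lower ones. Among the EtOH embryos with fewer nuclei, Ebf2 ran from 83.9 CPM in E2-1 to 911 CPM in E2-4, the latter on 4 nuclei. The mean of 490 ± 231 CPM (SD, n = 7) overlapped that of Cluster 14, the Reln-rich Cajal-Retzius cells, at 428 ± 147 (SD, n = 11). These neighbours in the order did not differ beyond their spread. Cluster 7 was next at 202 ± 111 CPM, and among the other PN clusters the highest pooled level was 83.3 CPM in Cluster 24.

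The plot of gene levels by cluster shows that Fam19a1, Kcnip4 and Klhl1 peaked in Cluster 25, whereas Ebf2 had a second peak of similar height in Cluster 14.

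**Figure D2:**
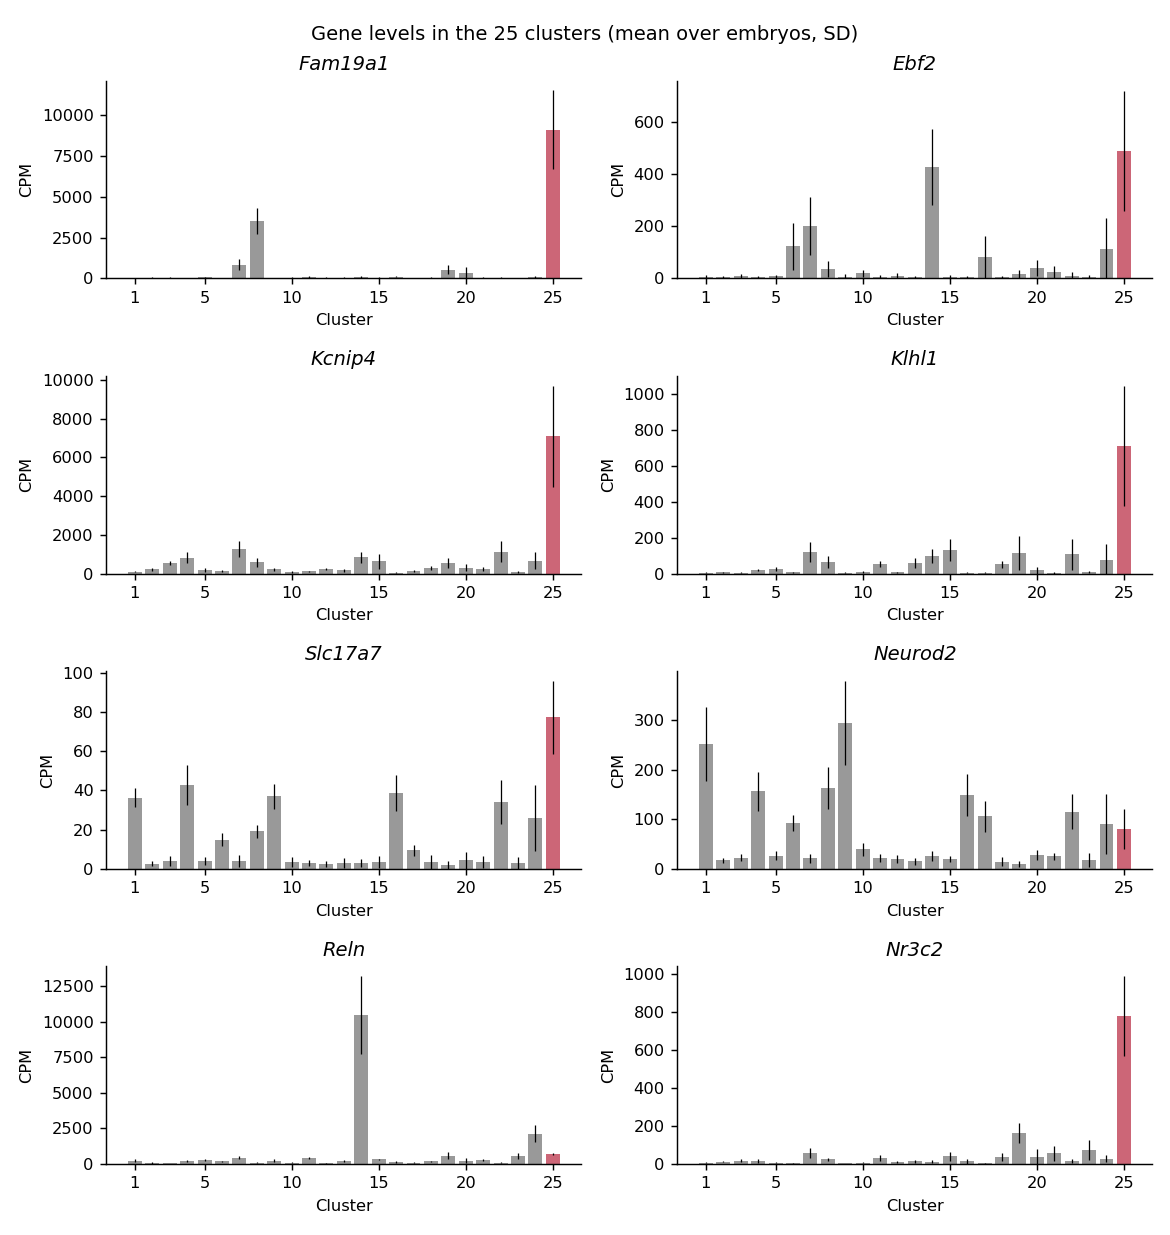
Level in CPM (vertical axis, linear) of 8 genes in each of the 25 clusters (horizontal axis), as the mean over embryos with at least 10 nuclei of that cluster, with bars for the SD and Cluster 25 in red. Fam19a1 averaged 9085 CPM in Cluster 25 and 3504 in Cluster 8, while Nr3c2 averaged 779 in Cluster 25 and 163 in Cluster 19.

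In single nuclei Fam19a1 was nearly universal and Ebf2 was not. A Fam19a1 UMI was found in 122 of 124 nuclei (98.4%, exact 95% interval 94.3 to 99.8%), with a median of 151 UMIs and a maximum of 896. After thinning to 2000 UMIs the share was still 97.6%, against 6.13% in RGC Cluster 2 and 7.31% in interneuron Cluster 5, which serve as background. An Ebf2 UMI was found in 78 of 124 nuclei (62.9%, 53.8 to 71.4%), with a median of 4.5 and a maximum of 75. At 2000 UMIs the Ebf2 share was 43.5%, against 1.41% in Cluster 2 and 1.17% in Cluster 5. The median depths before thinning were 19112 UMIs in Cluster 25, 7486.5 in Cluster 2 and 6652 in Cluster 5, and the intervals cover counting error only. Ebf2 was thus well above background in Cluster 25, but 46 nuclei held none.

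Nuclei with and without an Ebf2 UMI differed little in depth and both came from nearly all embryos. The 78 nuclei with Ebf2 had a median of 19354 UMIs and came from 11 embryos, and the 46 without had 18868 and came from 10. Klhl1, which encodes an actin-binding kelch-like protein, was found in 87.2% of the nuclei with Ebf2 and in 69.6% of those without. Its summed level did not follow, at 668 CPM with Ebf2 and 720 CPM without. Met, the receptor of hepatocyte growth factor, was found in 41.0% of the nuclei with Ebf2 and in 60.9% of those without, and its summed level was 57.9 and 84.1 CPM. Across embryos, S2-1 and S2-2 had the highest Ebf2 and the lowest Met, at 21.4 and 17.6 CPM against 65.4 to 107 CPM in the other 5. The same 2 embryos had the highest Neurod2, at 129 and 143 CPM against 43.5 to 82.8 CPM. E2-2, however, had the next highest Ebf2, at 562 CPM, and the highest Met, at 107 CPM. Nuclei of an embryo share a library, and these splits were not tested.

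**Figure D3:**
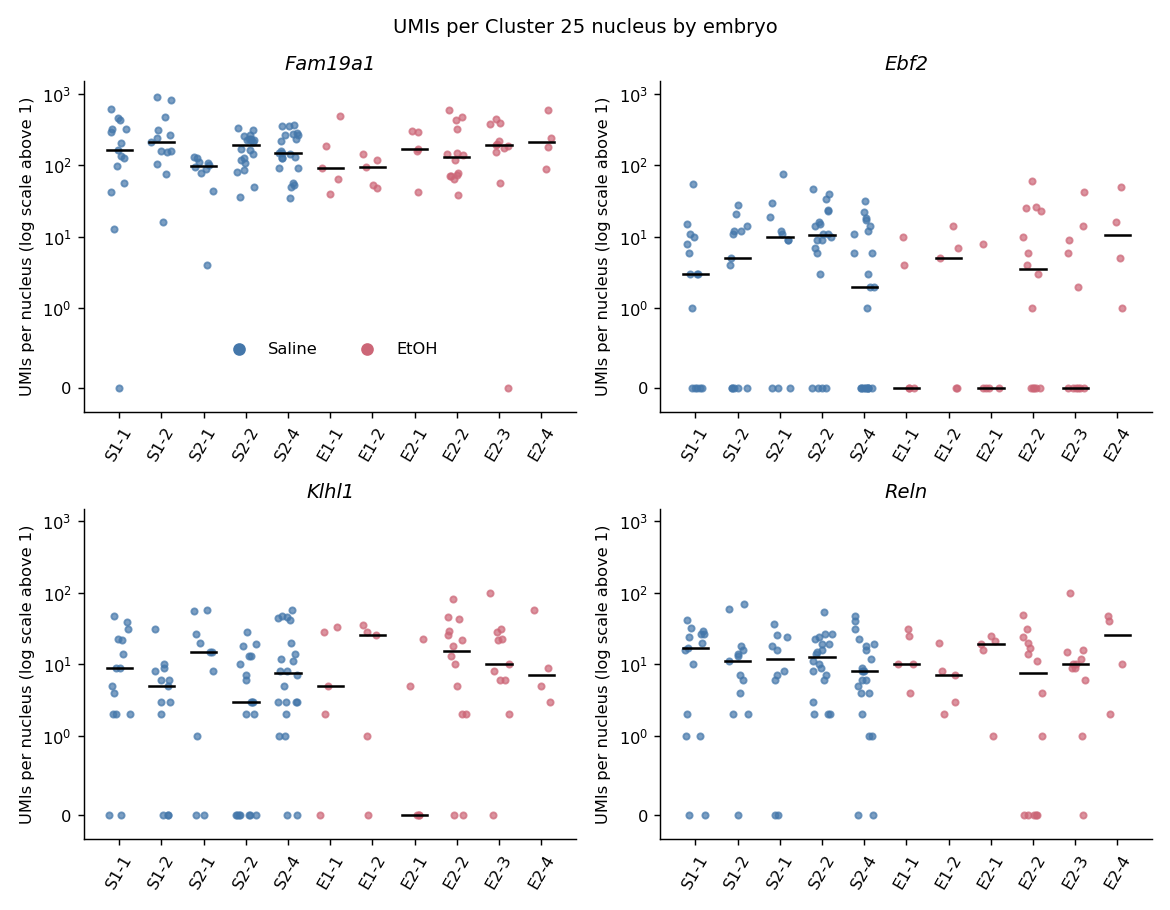
UMIs of 4 genes (vertical axis, logarithmic above 1 UMI and linear below) in each of the 124 Cluster 25 nuclei, by embryo (horizontal axis), with saline in blue, EtOH in red and a black line at the median of the embryo. Fam19a1 was present in 122 nuclei, whereas 46 nuclei had no Ebf2 UMI, 24 no Klhl1 UMI and 13 no Reln UMI.

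The label of projection neuron was checked against marker genes. Slc17a7, the vesicular glutamate transporter VGLUT1, was higher in Cluster 25 than in any other cluster. Its level was 65.4 CPM in S1-1, 103 in S1-2, 58.9 in S2-1, 70.4 in S2-2, 61.2 in S2-4, 103 in E2-2 and 79.1 in E2-3. The lowest of these 7 values lay above the Slc17a7 mean of each other cluster, of which Cluster 4 was the highest at 42.7 ± 10.3 CPM (SD, n = 11). Slc17a6, which encodes VGLUT2, was at 31.8 ± 16.9 CPM (SD, n = 7), and its summed level of 29.5 CPM ranked 23 of 25. Neurod2, a bHLH factor that the study used to define projection neurons, was present at 80.2 ± 40.2 CPM (SD, n = 7). By summed counts Neurod2 was lower in Cluster 25 (75.4 CPM) than in each of the other 7 PN clusters (80.7 to 311 CPM), although the range overlapped that of Cluster 24 at 90.2 ± 61.1 CPM. Thinned to 2000 UMIs, 10.5% of Cluster 25 nuclei had a Neurod2 UMI, against 2.81% in Cluster 2 and 3.95% in Cluster 5.

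Factors that mark subtypes of projection neurons varied in level. Fezf2, the subcortical marker, averaged 9.32 ± 7.14 CPM (SD, n = 7) against 77.7 ± 13.7 in Cluster 4. Foxp2 was lowest in Cluster 25 among all clusters, at 50.7 CPM by summed counts. Tbr1 averaged 37.7 ± 9.96 CPM and Bcl11b 723 ± 109, and by summed counts both ranked 10 of 25. Of the 14 measured genes of the projection neuron list, 1 was highest in Cluster 25 (7.14%), where measured means at least 10 CPM in some cluster. Over all 11455 such genes, 774 (6.76%) were highest in Cluster 25 and 3092 (27.0%) were lowest there. The cluster has the fewest UMIs in all, 2546082, so its ranks carry the most counting error.

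Markers of other classes were mostly low. Gad2, an enzyme of GABA synthesis, was lowest of all clusters in Cluster 25, at 26.5 ± 15.4 CPM (SD, n = 7). Cluster 24, at 28.4 ± 36.1 CPM, and Cluster 16, at 33.3 ± 28.9, did not differ from it beyond the spread. A Gad2 UMI was found in 26 of 124 nuclei, and after thinning in 4.84%, below the 6.34% of RGC Cluster 2. None of the 10 interneuron genes was at 0, and their summed level was 111 CPM, against 6309 in Cluster 10. It ran from 27.7 to 130 CPM in the saline embryos and was 46.3 and 297 CPM in the 2 EtOH embryos. Of the 297 CPM in E2-3, Dlx6os1 alone made up 233 CPM. A Dlx6os1 UMI was found in 6 of 44 EtOH nuclei, and the highest count in any Cluster 25 nucleus was 54 UMIs. Few nuclei can therefore carry that value. At least 10 Gad2 UMIs were found in 2 of 124 nuclei. The 8 radial glia genes summed to 73.4 CPM, against 1320 in Cluster 12, and the 5 intermediate progenitor genes to 12.96 CPM, the lowest of the clusters, with Neurog1 at 0. The 4 proliferation genes summed to 55.4 CPM, and 2 of 124 nuclei had at least 10 UMIs of Top2a, a topoisomerase of dividing cells. The 7 striatal genes summed to 300.5 CPM, against 16258 in striatal Cluster 11. The 6 thalamus genes summed to 248 CPM, with Gbx2 at 0, against a median of 449 in the other clusters and 1783 in Cluster 20. Ntng1, which the study used with Tcf7l2 to name thalamic cells, ranged from 47.8 to 403 CPM over the embryos. After thinning to 2000 UMIs a Ntng1 UMI was found in 17.7% of nuclei, against 8.83% in Cluster 2, 6.2% in Cluster 5 and 34.1% in PN Cluster 24. For Tcf7l2 the thinned share was 3.23%, against 40.8% in Cluster 2 and 4.29% in Cluster 5. The non-neural lists summed to 1.18 CPM for oligodendrocyte precursor genes, 6.28 for endothelial cells and pericytes, 1.96 for meninges and 20.4 for erythroid cells. The microglia genes summed to 23.6 CPM, above the median of the other clusters at 18.5 CPM and under the 76.9 CPM of Cluster 11. A UMI of P2ry12, a purinergic receptor of microglia, was found in 19.4% of Cluster 25 nuclei and, after thinning to 2000 UMIs, in 1.61%, against 3.74% in Cluster 2 and 1.35% in Cluster 5.

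Cluster 25 held Ebf2 and Reln, but Trp73, Lhx1 and Ebf3, which with them mark the Cajal-Retzius cells of layer I, were almost absent. Reln, the secreted glycoprotein that guides neuronal migration, ranged from 609 to 761 CPM over the 7 embryos and its summed level ranked 3 of the 25 clusters. Its mean of 697 ± 64.0 CPM compares with 10477 ± 2753 in Cluster 14 and 2130 ± 614 in Cluster 24. Reln in Cluster 19, at 573 ± 265 CPM, and in interneuron Cluster 23, at 548 ± 198, overlapped that of Cluster 25. Trp73 was at 3.14 CPM by summed counts against 528 in Cluster 14, Lhx1 at 1.57 against 134, and Ebf3 at 1.96 against 763. A Trp73 UMI was found in 4 of 124 nuclei and an Ebf3 UMI in 5. Of all 11 genes on the Cajal-Retzius list, 3 (27.3%) were among the 3 highest clusters in Cluster 25, beside 13.2% of all genes measured. Another 3, Ebf3, Nhlh2 and Ndnf, were among the 3 lowest, beside 4535 of the 11455 genes measured. A place among the lowest was thus no more common on this list than over all genes. The median log2 ratio of this list to the median of the other clusters was 0.33, beside -0.22 over all genes measured. Of the 7 measured genes on the mitral and tufted cell list, 3 (42.9%) were among the 3 highest clusters in Cluster 25, and 1, Slc17a7, was highest, with a median log2 ratio of 1.41. Cdhr1 ranked 2 at 5.89 CPM, under the 25.1 CPM of Cluster 24, whereas Eomes was lowest of the clusters at 1.96 CPM and Tbx21 was at 0. Tfap2e, a marker of the lateral olfactory tract and piriform list, was found in 0 of 124 nuclei, which allows up to 2.93% of nuclei with a UMI (exact 95% interval) and sets no limit on nuclei that express the gene. In Cluster 24 46.5% of nuclei had a UMI, and 16.1% after thinning to 2000 UMIs. Of the subplate genes, 3 of 6 in the files reached 10 CPM in some cluster and none was highest in Cluster 25. Over all genes measured 6.76% were highest there, so 3 genes are too few to tell.

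The first 15 markers that the study listed for PN 3 were chosen on these samples, so their direction is no independent evidence. All 15 were among the 3 highest clusters and 12 were highest in Cluster 25. Kcnip4, which binds Kv4 potassium channels, reached 7077 ± 2626 CPM (SD, n = 7), against 1124 ± 547 in Cluster 22. Slco3a1, an organic anion transporter, was at 1619 ± 236 CPM, with a UMI in 124 of 124 nuclei. Nr3c2, the mineralocorticoid receptor, was at 779 ± 212 CPM, against 163 ± 53.5 in Cluster 19. Cpne4, a calcium-dependent phospholipid-binding copine, was at 1029 ± 141 CPM, against 453 ± 159 in Cluster 19. The exceptions were Slit3, Trpm3 and Cntn5, each the second highest. Slit3, a secreted axon guidance protein, was higher in Cluster 16 at 4099 ± 455 CPM than in Cluster 25 at 2665 ± 479.

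A different rule, the largest ratio of the summed level to that of the next cluster, named mostly low genes. Thy1, a surface glycoprotein of mature neurons, led with 10.1 times the level of Cluster 4, on only 37 UMIs (14.5 CPM). Met stood at 7.62 times Cluster 23, with 172 UMIs, and Klhl1 at 5.22 times Cluster 15, with 1750 UMIs. Icam5 (telencephalin, an adhesion molecule of telencephalic neurons), Itpka, Kcnc4, Tnfrsf11a, Mal2 and Kcng2 were each at 5.42 to 6.62 times or, for Kcng2, 4.55 times the next cluster, on 21 to 54 UMIs. The transcripts A830036E02Rik, 2010300C02Rik and Gm7580, stood at 8.12, 5.48 and 4.92 times. Gm7580 lies on the opposite strand within Slco3a1 (chromosome 7, 74275419 to 74554780, GRCm38), and the sources used here do not state whether counting used the strand. Fam19a1 lies on chromosome 6 at 96113154 to 96657198 and Ebf2 on chromosome 14 at 67233292 to 67430918, both protein-coding genes on the plus strand.

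Within gene families the pattern was uneven. Of 4 measured Fam19a genes, Fam19a1 was highest in Cluster 25, and Fam19a2 (1757 ± 148 CPM) and Fam19a5 (358 ± 58.4 CPM) ranked 3. Of the Ebf genes, Ebf2 was highest and Ebf3 lowest, and Ebf1, at 108 ± 55.7 CPM, lay far under the 12463 ± 1265 CPM of striatal Cluster 11. Genes of the mature synapse and of excitability were often highest here: 7 of 13 synapse genes (53.8%), 6 of 14 ion channels (42.9%), 4 of 14 glutamate receptors (28.6%) and 4 of 11 GABA receptors (36.4%), beside 6.76% of all genes measured. The lists were chosen with earlier results of these data known, so these shares are descriptions. Camk2b among the synapse genes, and Kcnma1 and Trpm3 among the ion channels, are also on the study's list for PN 3. Snap25, a SNARE protein of vesicle release, was at 417 ± 69.0 CPM, against 389 ± 67.4 in Cluster 16, a difference within the spread. Camk2a was at 260 ± 50.7 CPM against 154 ± 24.3 in Cluster 3. Scn2a, a sodium channel, was at 344 ± 25.1 CPM against 232 ± 25.6 in Cluster 7, and Grik1, a kainate receptor subunit, at 1705 ± 419 against 1010 ± 251 in Cluster 5. Dcx, a microtubule protein of migrating neurons, was low, at 216 ± 43.0 CPM and rank 20.

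The clusters most like Cluster 25, by Spearman's rho of log2(CPM + 1) over 11455 genes, were Cluster 19 (0.931), Cluster 22 (0.927) and Cluster 7 (0.923). Cluster 19 is the neuronal cluster that the study left unclassified, Cluster 22 a callosal PN cluster and Cluster 7 an interneuron cluster. Cluster 8, the other Fam19a1-rich cluster, followed at 0.912. These values are descriptions over genes, which are not independent and differ in counts between clusters. Likeness of genes over the 25 clusters was ranked among the 8152 genes of at least 10 CPM in Cluster 25, so genes low there could not appear. Of these, the genes whose levels followed Fam19a1 most closely were Dtna (rho 0.844), Glra3 (0.795), Faah (0.785), AC161199.1 (0.776) and Dclk3 (0.775). Those that followed Ebf2 were 4930438E09Rik (0.958), Tmem163 (0.856), Ano5 (0.786), Rasgrp1 (0.785) and Pnpla6 (0.757), and 4930438E09Rik lies on the opposite strand within Ebf2.

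The share of nuclei in Cluster 25 did not differ between treatments beyond the spread of the embryos. Among the saline embryos it was 0.196% (15 of 7639 nuclei) in S1-1, 0.258% (13 of 5039) in S1-2, 0.166% (10 of 6019) in S2-1, 0.451% (20 of 4437) in S2-2 and 0.305% (22 of 7215) in S2-4. Among the EtOH embryos it was 0.173% (5 of 2898) in E1-1, 0.213% (5 of 2350) in E1-2, 0.131% (5 of 3804) in E2-1, 0.284% (14 of 4928) in E2-2, 0.469% (11 of 2346) in E2-3 and 0.103% (4 of 3875) in E2-4. The highest and the lowest embryo were both EtOH, and the groups overlapped almost throughout. Saline embryos averaged 0.275% ± 0.112 (SD, n = 5). EtOH embryos averaged 0.229% ± 0.134 (SD, n = 6). The difference of -0.0464 percentage points had p = 0.532 in a two-sided exact permutation test over 462 splits of the embryos, and p = 0.505 within batches. It was -0.0944 percentage points without E2-3 (exact permutation p = 0.159) and -0.00253 without S2-2 (exact permutation p = 0.986), so its size rests on single embryos. In batch 1 the means were 0.227% and 0.193%, and in batch 2 0.307% and 0.247%, so EtOH was lower in both. Counts of 4 to 22 nuclei per embryo limit the test, and it does not show that the treatments were alike.

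**Figure D4:**
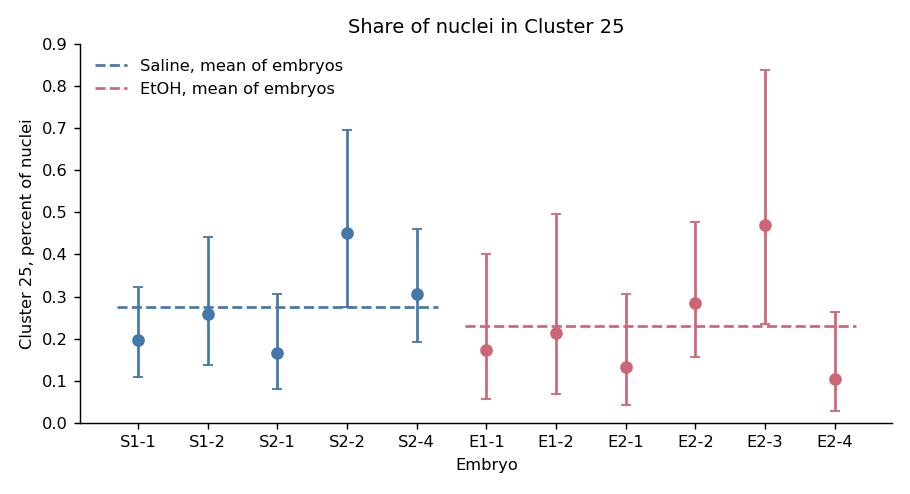
Cluster 25 nuclei as a percentage of all nuclei of the embryo (vertical axis) for the 11 embryos (horizontal axis), with exact 95% binomial intervals as bars and the mean of each group as a dashed line. Saline (blue) and EtOH (red) had means of 0.275% and 0.229%. Most of their intervals overlap, but those of S2-2 (0.276 to 0.695%) and E2-4 (0.028 to 0.264%) do not. The intervals cover counting error only.

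With the nuclei of the 8 PN clusters as the denominator the means were 0.958% ± 0.338 in saline and 0.635% ± 0.377 in EtOH (exact permutation p = 0.167). Depth relative to the other PN nuclei was 2.26 ± 0.296 times in the saline embryos and 2.76 ± 0.375 times in the EtOH embryos. That comparison was added after the data were seen and had an exact permutation p = 0.0476, or 0.19 after Benjamini-Hochberg adjustment over the 4 shares and depths compared. The absolute median UMIs did not show it, at 19685 ± 2283 and 18046 ± 3440 (exact permutation p = 0.372). The other PN nuclei, the denominator of the ratio, had medians of 6812 to 10101 UMIs in the saline embryos. In the EtOH embryos those medians were lower on the whole, at 4351 to 7485 UMIs. Fewer nuclei of a type and a lower yield of that type in preparation cannot be told apart.

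Gene expression was compared between EtOH and saline on counts summed per embryo, with 5 saline embryos and the EtOH embryos E2-2 and E2-3, both from dam E2 and batch 2. Dam and treatment therefore cannot be told apart in this fit. Of 5212 genes tested with edgeR's quasi-likelihood test, 0 (0.0%) passed an adjusted p of 0.05 and the fold-change limits of the study, and 303 (5.81%) had an unadjusted p under 0.05, 150 higher and 153 lower. DESeq2 also called 0, with 147 at an unadjusted p under 0.05. Fam19a1 differed by 0.14 on the log2 scale (SE 0.27, edgeR adjusted p = 0.981) and Ebf2 by -0.24 (SE 0.54, adjusted p = 0.987). Neither direction held when 1 embryo was left out, since Fam19a1 was at -0.018 without S2-1, and Ebf2 at 0.034 without S2-1, 0.16 without E2-3 and -0.84 without E2-2. Klhl1 differed by 0.75 (SE 0.56, adjusted p = 0.928), Met by 0.79 (SE 0.51, adjusted p = 0.914) and Neurod2 by -0.81 (SE 0.44, adjusted p = 0.897).

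Of the genes in the lists, 114 were tested and 0 passed. The 15 listed PN 3 markers had a median log2 difference of 0.11, with 11 higher and 4 lower, beside a median of -0.01 over all genes tested. The 15 genes with the largest ratio to the next cluster were chosen by their level in these same nuclei. Of these, 8 were tested, 7 higher and 1 lower, with a median of 0.77. Over all 5212 genes tested, 2566 were higher and 2646 lower. Among the 7, A830036E02Rik needed the EtOH embryos to pass the filter on low counts. The count of directions on this list is therefore no independent evidence. All 14 glutamate receptors were tested, 7 higher and 7 lower, with a median of 0.01, and the 11 GABA receptors had 6 higher and 5 lower. Of the 114 genes, 4 (3.51%) had an unadjusted p under 0.05, beside 5.81% of all genes tested: Slc17a6, Gabra5, 2010300C02Rik and Gm7580. Slc17a6 was at 25.2 to 53.6 CPM in the saline embryos and at 3.56 and 23.7 CPM in the EtOH embryos. Both EtOH values lay under the saline range, as held for 327 (6.27%) of the 5212 genes tested. Only saline embryos brought Slc17a6 past the filter on low counts, so its direction is no independent evidence.

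Igsf21, Kcnh1 and Gm7580 were chosen for description after their values were seen, because each was called under some setting or had the smallest p. Igsf21, an immunoglobulin superfamily adhesion protein, had the smallest p, with a log2 difference of 1.24 (SE 0.22, edgeR adjusted p = 0.133). Its level was 98.1 to 162 CPM in the 5 saline embryos, 335 CPM in E2-2 and 340 CPM in E2-3, and 290 (5.56%) of the 5212 genes tested had both of these EtOH embryos above every saline embryo. In the 4 EtOH embryos with fewer nuclei it was 105, 160, 136 and 266 CPM, and over every embryo the difference was 0.77 (adjusted p = 0.647). It was called under 1 of 17 settings, without the filter on low counts, at 1.16 (edgeR adjusted p = 0.00302). Kcnh1, a voltage-gated potassium channel, rested on 1 to 8 UMIs per saline embryo and 4 to 16 per EtOH embryo. Its level was 5.03 to 20.9 CPM in the saline embryos and 52.4 to 114 CPM in the 6 EtOH embryos, with no overlap. Only the EtOH embryos brought Kcnh1 past the filter on low counts, over the 7 embryos and over every embryo. Its direction and the gap between the groups are therefore no independent evidence. The log2 difference was 2.31 (SE 0.59, adjusted p = 0.661) in the 7 embryos and 2.56 (SE 0.41, adjusted p = 0.0177) over every embryo. Gm7580 was at 23.5 to 46.4 CPM in the saline embryos and 58.1 to 114 CPM in the 6 EtOH embryos. Its log2 difference was 1.53 (SE 0.32, adjusted p = 0.368) in the 7 embryos and 1.50 (SE 0.26, adjusted p = 0.0245) over every embryo. The fit over every embryo takes littermates as independent. Too few saline embryos reached the limit of its filter on low counts for Gm7580 to be tested without the EtOH embryos. With the replicate block by batch over every embryo the adjusted p from edgeR was 0.0125 for Kcnh1 and 0.0701 for Gm7580. With counts summed per dam it was 0.054 for Kcnh1 and 0.14 for Gm7580, so neither call held there, with log2 differences of 2.51 and 1.46. Of the 3992 genes tested over every embryo, 9 (0.225%) had every EtOH embryo above every saline embryo and 14 (0.351%) had every EtOH embryo below.

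**Figure D5:**
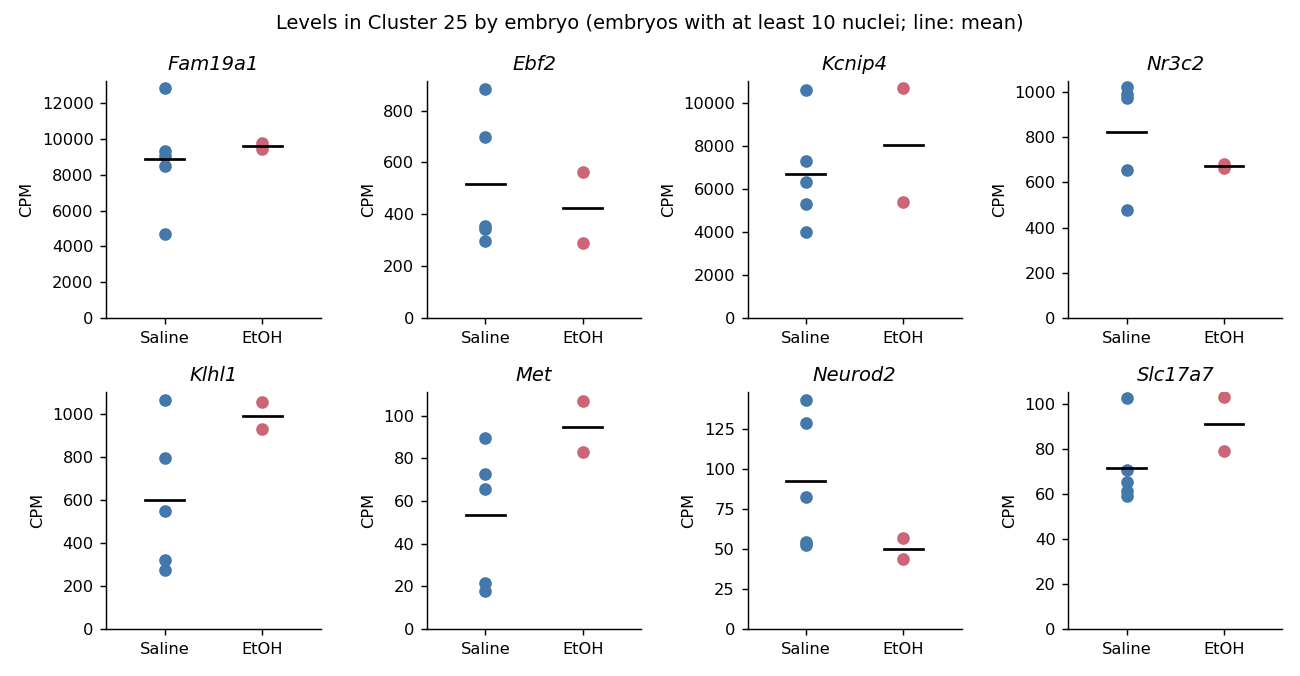
Level in CPM (vertical axis, from 0) of 8 genes in Cluster 25 of each embryo with at least 10 nuclei, 5 saline (blue) and 2 EtOH (red), with a line at the group mean. The EtOH points lie within the saline range for Fam19a1 (9787 and 9454 CPM) and for Nr3c2 (680 and 665 CPM).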

How the data were processed

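Nuclei of 11 mouse embryonic cortices (5 saline, 6 EtOH) were profiled by snRNAseq with 10x 3′ chemistry. For each embryo and cluster the authors deposited raw UMI counts per gene and nucleus, made with Cell Ranger on mm10. Nuclei were filtered and clustered by the authors with Seurat 4.1.0. Group and dam came from the labels. Members and gene lists were chosen with earlier results of these data known.

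The tables (275, with 23513 genes) were handled in pandas 2.3.3, SciPy 1.17.1 and NumPy 2.4.6 under Python 3.11.15. Figures used matplotlib 3.10.9. Summed Cluster 25 counts per embryo ranged from 68858 to 424531 UMIs. CPM per embryo was computed for embryos with at least 10 nuclei, and in every embryo for a few genes, Igsf21, Kcnh1 and Gm7580 among them. Percentages were compared by two-sided exact permutation tests. EtOH and saline were compared with edgeR 4.0.16 in R 4.3.3 (TMM, robust quasi-likelihood, filterByExpr, Benjamini-Hochberg adjustment at 0.05), tested on simulated data, with DESeq2 1.42.0 as an alternative. Alternatives comprised other scalings, filters, embryo sets, a batch term, counts per dam and leaving out each embryo. Doublets were not called. P-values measure spread between embryos, including littermates. Gene positions came from GENCODE M21 on GRCm38, where 23136 genes (98.4%) matched by symbol.

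Named genes were Fam19a1, Ebf2, the first 15 genes listed for PN 3, the list genes, the 15 genes with the largest ratio to the next cluster (at least 20 UMIs, and a UMI in at least 5 embryos), the 3 most alike clusters, the 5 genes most like each of the markers, and up to 5 genes called per direction. Some genes that the rule names are not reported here.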

Additional observations from a re-analysis of the deposited data

Results flagged for a closer look

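Of 36 groups of embryos examined for a single outlying value, 1 was flagged. Among the 5 saline embryos, Slc17a7 in S1-2 was at 102.6 CPM, far above the other 4, which lay between 58.9 and 70.4 CPM. Chance flags about 1 in 20 such groups. The 2 EtOH embryos stood at 103 and 79.1 CPM.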

How the results depend on the processing

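The difference in the share of nuclei kept its sign under each alternative and passed no test. It was -0.0474 points with dam means, -0.0653 with medians and -0.0455 among nuclei with at least 2000 UMIs, and the replicate block by batch gave -0.0464 with p = 0.505 by exact permutation. Leaving out 1 embryo gave -0.0944 to -0.00253, the latter without S2-2. The number of genes called was 0 in the reported fit, with DESeq2, with RLE or library-size scaling, and with the replicate block by batch. It was 23 without a filter on low counts (20 higher, 3 lower, none with 0 counts in all embryos of a group), 1 with at least 5 nuclei (Kcnh1), 2 with every embryo (Kcnh1 and Gm7580), 1 with every embryo and the replicate block (Kcnh1, an alternative chosen after seeing the data) and 3 with counts summed per dam (Zfp804b, Gm45881 and Sox6, the last lower). Leaving out 1 embryo gave 0 to 3, with 3 without S2-4 (Slc24a5, Gm20642 and Mettl23) and 2 without E2-3 (Rnf220 and Rec114). These genes were named after their values were seen, and the cause was not tested. Kcnh1, and Gm7580 over every embryo, passed the filter on low counts through the EtOH embryos, where they were high. Leaving out 1 embryo moved the log2 difference of Fam19a1 between -0.018 (without S2-1) and 0.29, and that of Ebf2 between -0.84 and 0.16 (without E2-3, and 0.034 without S2-1), none of them called. Shares of nuclei with a UMI fell with thinning, to 43.5% for Ebf2, 45.2% for Klhl1, 55.6% for Reln and 14.5% for Slc17a7. Depth limits the test of genes with few UMIs, and only 2 EtOH embryos had at least 10 nuclei.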
